A study of Arabidopsis thaliana with 14 samples.

Results

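BABY BOOM (BBM, AT5G17430) is a gene on chromosome 5 of Arabidopsis thaliana that encodes a transcription factor of the AP2/ERF class. It was chosen by its symbol in the probe annotation of the ATH1 array, where 1 probe set carries it, and it is 1 of 13356 genes that had a named probe set. BBM was followed over all 7 kinds of sample from young seeds of the Ws-0 accession. These were the embryo proper, the micropylar, peripheral and chalazal endosperm, the general and the chalazal seed coat, and sections of the whole seed, with 2 biological replicates and so 2 arrays each. All groups were cut by laser microdissection from paraffin sections of seeds whose embryo proper held 2 to 8 cells, in siliques of 1.0 to 1.1 cm from plants 38 to 46 days old. No mutant, transgene or treatment was part of the design. The samples titled peripheral endosperm are called cellularized endosperm in their source labels, and the labels do not tie single plants or seeds to the arrays.

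BBM belongs to the AINTEGUMENTA-LIKE or PLETHORA branch of the AP2/ERF proteins, whose members carry a pair of AP2 DNA-binding domains and keep cells dividing and undetermined in embryos and meristems. It was found in Brassica napus pollen cultures that turn into embryos, and its forced expression makes Arabidopsis seedlings form embryos on their leaves and cotyledons. In the seed the embryo proper forms the future plant, the endosperm is the second product of fertilization and nourishes it, and the seed coat is maternal tissue.

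The embryo proper had the brightest BBM signal of all 7 groups, at 581 and 680 on its 2 arrays (scaled intensity on a linear scale). The micropylar endosperm, which surrounds the embryo, had 125 and 6.72. The peripheral endosperm, which lines the central cavity of the seed, had 7.60 and 11.4, and the chalazal endosperm, at the pole opposite the embryo, had 84.0 and 92.2. Both embryo proper arrays therefore lay above all 12 other arrays, and the lower of them was 4.66 times the highest of the others. The general seed coat had 6.52 and 66.7, and the chalazal seed coat, beside the tissue that supplies the seed, had 8.65 and 8.42. The whole seed sections had 2.89 and 85.5. The 2 arrays differed 1.17-fold in the embryo proper and 1.10-fold in the chalazal endosperm. In the peripheral endosperm and the chalazal seed coat both arrays were under 35.9, the 25th percentile of all values in the table. The micropylar endosperm, the general seed coat and the whole seed each had 1 array above and 1 under it, and no fold is given over such dim values. On the log2(signal + 35.9) scale these pairs of arrays differed by 1.91, 1.27 and 1.65.

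In the order of means, the embryo proper (630.5 ± 70.4, SD, n = 2 as for all groups) came before the chalazal endosperm (88.1 ± 5.78), the micropylar endosperm (65.6 ± 83.3) and the whole seed (44.2 ± 58.4). The general seed coat (36.6 ± 42.6), the peripheral endosperm (9.49 ± 2.68) and the chalazal seed coat (8.54 ± 0.162) followed. Of the 12 arrays outside the embryo proper, 7 lay under 35.9, so BBM was among the dim probe sets there. The 40th percentile of the array was passed by BBM on 4 of the 14 arrays, which were both embryo proper arrays, micropylar endosperm replicate 1 and chalazal endosperm replicate 2. Detection calls were not used here, so a low value is given as measured and does not show that the transcript was absent.

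**Figure D1:**
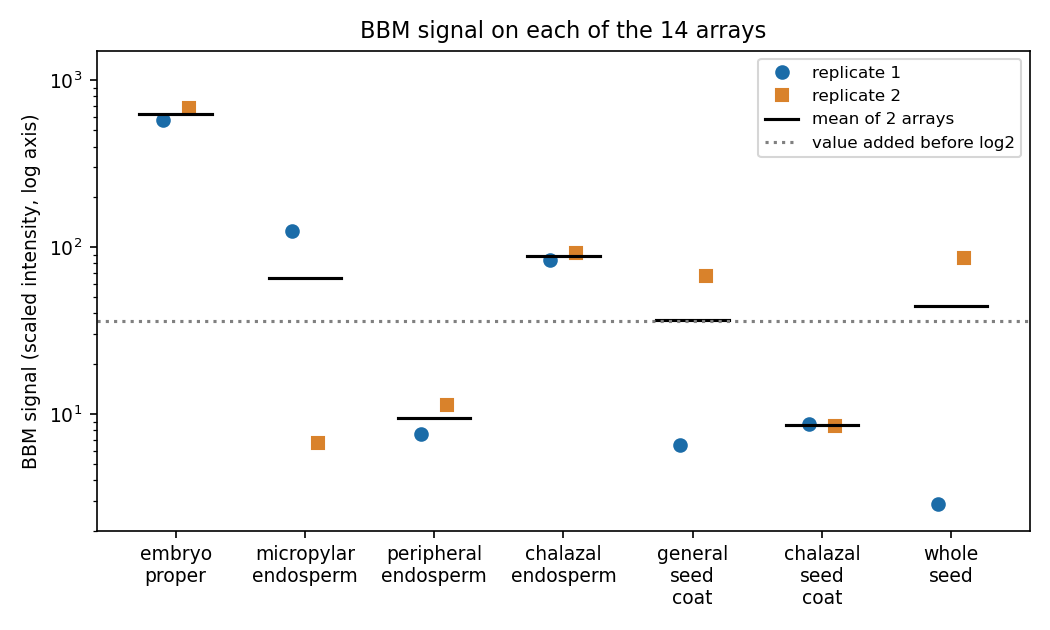
BBM signal on each array (log axis, scaled intensity), with a circle for replicate 1, a square for replicate 2, a bar for the mean of the 2 arrays and a dotted line at 35.9, the value added before log2. The embryo proper arrays sit at 581 and 680, above all other arrays, and the micropylar endosperm, the general seed coat and the whole seed have 1 array above and 1 below the line.

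Differences between groups were tested on the log2(signal + 35.9) scale with limma over 17336 probe sets bright enough to be tested. A call needed a Benjamini-Hochberg adjusted p under 0.05 together with a change of 2-fold or more. BBM had both arrays above the 40th percentile only in the embryo proper, so being tested already required bright arrays there. BBM was higher in the embryo proper than in the mean of the other 5 compartments by 3.31 (SE 0.52, 95% interval 2.21 to 4.40, limma adjusted p = 8.72e-05). In that comparison 13.2% of all tested probe sets were called higher, with a median of 1.78 for those called, and 176 of these 2290 had a larger difference than BBM. Both embryo proper arrays lay above all 12 other arrays for 9.36% of the tested probe sets, so this trait alone is shared with many genes. The size of the BBM difference rests on the value added before log2, since most other arrays lay under it. With 1 added it was 4.79 (adjusted p = 0.0106) and with 100 added it was 2.42, and over 23 alternative settings the adjusted p ranged from 2.85e-06 to 0.0106. Without the filter on dim probe sets it was 3.31 (limma adjusted p = 0.000122).

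BBM was also higher in the embryo proper than in each other group taken singly, and all 6 of these tests share the embryo proper arrays. The difference was 3.01 against the micropylar endosperm (SE 0.68 in every pair, limma adjusted p = 0.00272), 3.87 against the peripheral endosperm (adjusted p = 0.000323) and 2.42 against the chalazal endosperm (adjusted p = 0.00821). The shares of all tested probe sets called higher in these comparisons were 12.7%, 8.94% and 20%. It was 3.33 against the general seed coat (adjusted p = 0.000996), 3.90 against the chalazal seed coat (adjusted p = 0.000176) and 3.27 against the whole seed (adjusted p = 0.00117), where 10.8%, 12.2% and 10.1% of probe sets were called higher. Calls higher than each of the other 5 compartments were made for 332 probe sets, 1.92% of those tested, and BBM was 1 of them. It was also 1 of the 319 (1.84%) that were called against the whole seed as well.

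The calls against the micropylar and chalazal endosperm were the least firm of these 6. Without micropylar endosperm replicate 2, which left the brighter array, the difference was 2.05 and the call was lost (adjusted p = 0.0669, where 23 alternatives gave 0.000177 to 0.0669). Without embryo proper replicate 2 the difference from the chalazal endosperm was 2.31 and its call was lost (adjusted p = 0.0551, range 0.000397 to 0.192). With 1 added before log2, the limma adjusted p was 0.0661 for the micropylar and 0.192 for the chalazal endosperm. In that setting the differences were larger, at 4.34 and 2.82, and so was the SE, at 1.57 for both.

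**Figure D2:**
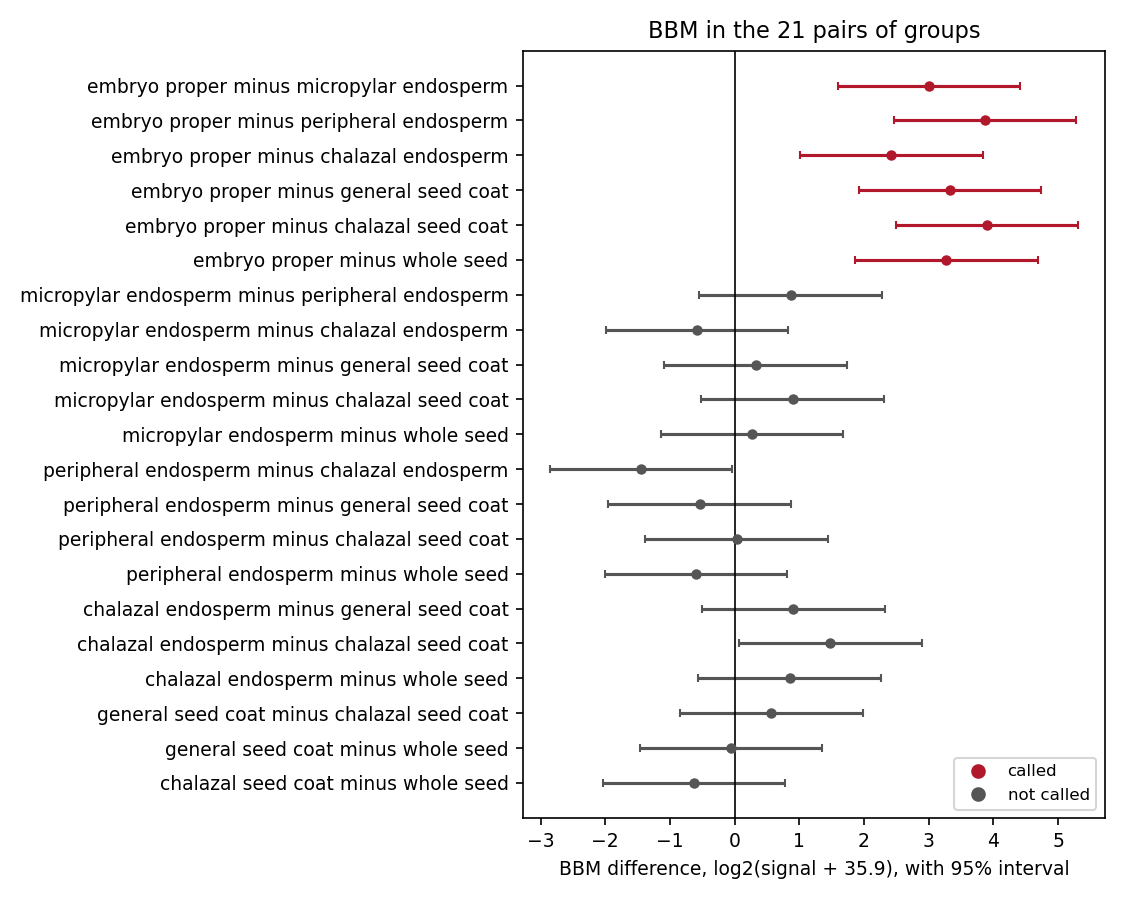
BBM difference in each of the 21 pairs of groups on the log2(signal + 35.9) scale (points) with its 95% interval (bars), first-named group minus the second-named. The 6 pairs with the embryo proper, in red, lie between 2.42 and 3.90 and were called, and the 15 other pairs, in grey, were not.

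Among the 6 groups other than the embryo proper, BBM was called in 0 of 15 pairs by limma, where 22.6% of all tests on probe sets gave a call (2.04% to 32.4% by pair), and 2 pairs had an unadjusted p under 0.05. Both involved the chalazal endosperm, whose difference was 1.48 from the chalazal seed coat (95% interval 0.07 to 2.89, adjusted p = 0.103). The peripheral minus the chalazal endosperm gave -1.45 (95% interval -2.86 to -0.04, adjusted p = 0.121). Neighbours in the order of means below the embryo proper were not called. The micropylar minus the chalazal endosperm gave -0.58 (adjusted p = 0.581), the micropylar endosperm minus the whole seed 0.27 (adjusted p = 0.816) and the general seed coat minus the whole seed -0.06 (adjusted p = 0.991). The next steps down were the peripheral endosperm minus the general seed coat at -0.54 (adjusted p = 0.624) and the peripheral endosperm minus the chalazal seed coat at 0.03 (adjusted p = 0.982). The interval of every pair reaches 1.41 to either side of its estimate, and in all 15 pairs it holds differences of 2-fold or more.

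The mean of the 3 endosperm regions minus that of the 2 seed coat regions was 0.52 for BBM (SE 0.44, 95% interval -0.39 to 1.43, limma adjusted p = 0.363), in a comparison that called 36.2% of all tested probe sets. The whole seed contains every compartment, and its BBM difference from the mean of the 6 compartments was -0.52 (95% interval -1.60 to 0.56, adjusted p = 0.592, 10.7% of probe sets called). That value had no settled sign, since leaving out single arrays gave -1.34 to 0.30. In whole seed sections a smaller share of embryo cells and less RNA per cell cannot be told apart.

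The micropylar endosperm, the compartment next to the embryo, was 1 of the 3 groups whose replicates were split for BBM. Other probe sets high in the embryo proper were set beside this split, a description chosen after the values were seen. Of 388 other probe sets called higher in the embryo proper than in each of the other 4 compartments, 59.0% were brighter on micropylar replicate 1 than on replicate 2, with a median difference of 0.20. Over all tested probe sets that share was 47.9% and the median -0.04 (SD 1.07), while BBM differed by 1.91. In the general seed coat, where replicate 2 had more BBM, 46.2% of 448 such probe sets were brighter on replicate 2, against 49.4% of all tested. In the whole seed the shares were 52.0% of 331 and 49.1%. What part embryo tissue in the micropylar sections had in the BBM value was not tested.

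The genes with the pattern most like BBM were found by Pearson correlation on the log2(signal + 35.9) scale over the 14 arrays, among 9763 tested genes with a named probe set. The correlations are a description, since arrays of a group share their tissue and the 2 embryo proper arrays stand apart from the rest. The 10 highest ran from 0.878 to 0.930, against a median of -0.03 over all genes compared, and 51 genes exceeded 0.8. Without the embryo proper arrays the same 10 gave 0.525 to 0.764 over the other 12 arrays. Each of the 10 had both embryo proper arrays above all others, as had 9.36% of all tested probe sets. Their choice by correlation with BBM over the same arrays favours this, and it also favours positive values over the other 12 arrays. Neither is a separate result.

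AT4G00920 was the most alike (r = 0.930), with 2703 and 3773 in the embryo proper against 124 and 5.62 in the micropylar endosperm, 90.2 and 35.1 at the chalazal pole of the endosperm, and 5.32 and 64.1 in the whole seed. Like BBM it had its brighter micropylar array on replicate 1 and its brighter whole seed array on replicate 2. In the general seed coat, with 49.5 and 38.2, and in the chalazal endosperm its brighter array was replicate 1, whereas that of BBM was replicate 2. AT1G29980 (r = 0.917) had 2993 and 2846 in the embryo proper against 330 and 122 in the micropylar endosperm. TET15 (r = 0.909), a tetraspanin, a family of small membrane proteins, had 5090 and 4212 in the embryo proper against 1030 and 197 in the micropylar endosperm. EXO (EXORDIUM, r = 0.907), a cell wall protein that promotes growth in response to brassinosteroids, had 1743 and 1334 in the embryo proper, against 175 and 13.8 in the micropylar and 297 and 261.5 in the chalazal endosperm. UBC20 (r = 0.884), a ubiquitin-conjugating enzyme of a class linked to the breakdown of mitotic cyclins, had 4601 and 4331 in the embryo proper against 304 and 348.5 in the chalazal seed coat, its dimmest group, and means of 767 to 1046 in the other 5 groups. The other 5 were AT1G77580, AT2G37880, AT2G36550, AT2G34700 and AT1G71691. Like BBM, all 10 were brighter on micropylar replicate 1 than on replicate 2, 8 were brighter on general seed coat replicate 2 than on replicate 1, and 6 on whole seed replicate 2 than on replicate 1. Their choice by correlation with BBM favours such matches. Of the 10, 7 to 10 stayed among the 10 most alike in each alternative setting.

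**Figure D3:**
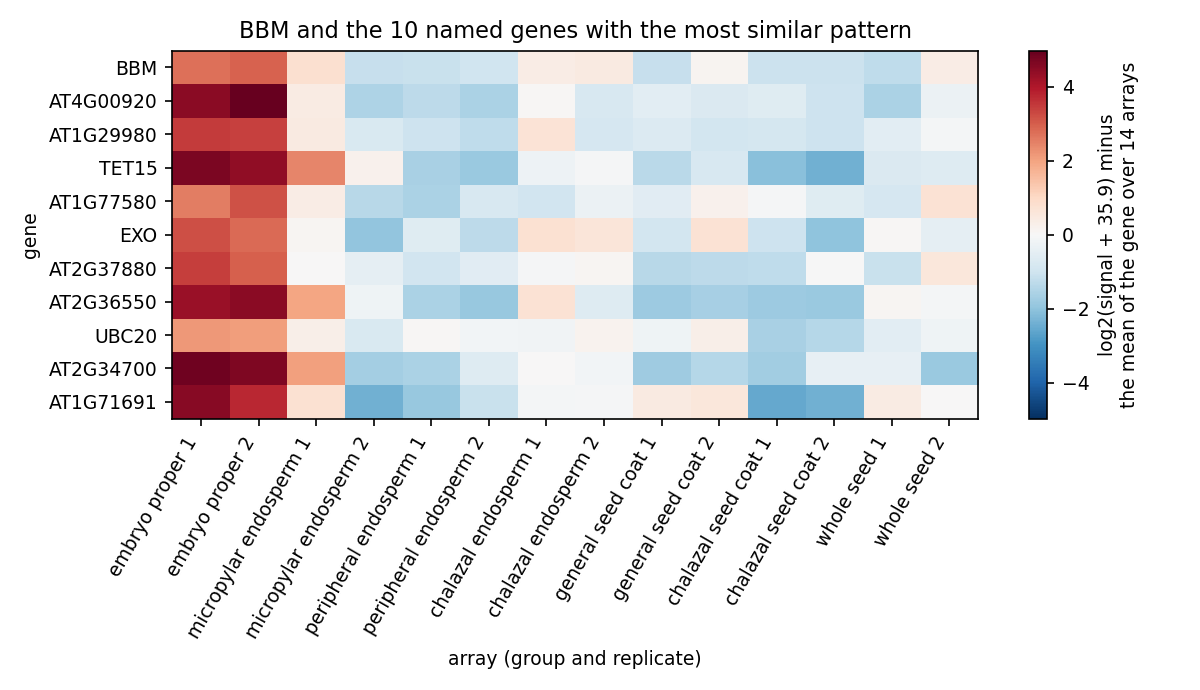
Level of BBM and of the 10 named genes most like it on each of the 14 arrays, as log2(signal + 35.9) minus the gene's own mean, so colours compare arrays within a row and not genes. Red in the columns of both embryo proper arrays marks values above the mean for all 11 genes, and the micropylar endosperm columns show replicate 1 redder than replicate 2.

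Relatives of BBM gave little to set beside it. None of the 7 other genes of the AINTEGUMENTA and AIL family on the list had a named probe set, so those genes are not analysed here. In the annotation used, 8730 of 22746 probe sets name no gene. The gap therefore does not show whether the array carries probes for these genes. Of 9 listed genes of the AP2 and WRI1 classes, which also carry a pair of AP2 domains, 2 had a probe set and 1 was tested. That was SCHLAFMÜTZE (SMZ), a repressor of flowering, with 14.5 and 110 in the embryo proper and means of 28.9 to 110 in the other compartments. Its difference from the mean of the other 5 compartments was -0.25 (SE 0.54, limma adjusted p = 0.767), and its brightest group mean was in the whole seed. SCHNARCHZAPFEN (SNZ), its close relative, was too dim to be tested and had 8.04 and 4.02 in the embryo proper.

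Of 95 listed AP2/ERF genes with a single AP2 domain, 7 had a named probe set and 2 passed the filter on dim probe sets. ORA47, a regulator of jasmonate responses, had 85.9 and 116 in the embryo proper, against 16.9 and 218 in the micropylar and 144 and 145 in the chalazal endosperm (difference 0.40, SE 0.58, adjusted p = 0.650). SHN3, which promotes cutin and wax formation, had 66.0 and 4.80 in the embryo proper against 309 and 885 in the whole seed (difference -0.82, SE 0.67, adjusted p = 0.391). In all, 0 of the 3 tested relatives were called either way by limma, and 0 had an unadjusted p under 0.05, where 25.3% of all tested probe sets were called. Without embryo proper replicate 2, TINY2 passed the filter on its 1 remaining embryo proper array and was called (1.77, adjusted p = 0.0448). The embryo proper arrays of TINY2 had 144 and 5.61, so this call leaves out the dim array and takes its spread from the other groups. The genes TINY (tny), TINY2, HRD, PUCHI and LEP, untested on the full set of arrays, had values of 2.66 to 197 over the 14 arrays.

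Among early embryo patterning genes, 3 of 7 tested were higher in the embryo proper and none lower, where 13.2% of all tested probe sets were called higher and 25.3% either way, with a median difference of 0.20 against -0.07 over all tested probe sets. GSO1, a receptor kinase that acts in forming the embryo's cuticle, had 1351 and 1547 in the embryo proper and at most 297 on any other array (difference 3.79, SE 0.58, limma adjusted p = 6.0e-05). LHW, a bHLH factor of vascular founder cells, had 1502 and 1408 in the embryo proper but 1464 and 759 in the chalazal seed coat, so its arrays overlapped (difference 2.47, SE 0.56). FAC1, an AMP deaminase needed for the zygote to develop, was higher by 1.52 (SE 0.39), and its brightest mean was in the peripheral endosperm. The count of 3 was 2 when either embryo proper array was left out. PHV (-0.44), JKD (-0.91), KEU (-0.83) and BIM1 (0.20) were not called. AGL18, a MADS-box factor related to AGL15, was the 1 tested gene of 27 embryo identity regulators and was lower in the embryo proper by -1.42 (SE 0.38, limma adjusted p = 0.00855), with 378 and 804 there and 9479 and 8956 in the chalazal seed coat. That call was lost without embryo proper replicate 1 (largest adjusted p = 0.263, range 0.000574 to 0.263 over 23 alternatives).

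Auxin synthesis is among the processes that forced BBM expression is known to raise, and YUCCA enzymes carry out its last step. YUC4 was the listed gene most like BBM (r = 0.826 over 14 arrays, 0.439 without the embryo proper). It had 192 and 301 in the embryo proper, against 56.0 and 19.1 in the micropylar and 151 and 9.58 in the chalazal endosperm, and 25.4 or less on all other arrays. Of 4 YUCCA genes tested, YUC4 was higher by 2.27 (SE 0.47, limma adjusted p = 0.00107) and YUC6 lower by -1.80 (SE 0.49, adjusted p = 0.00886). YUC4, like BBM, passed the filter on dim probe sets only through its embryo proper arrays, so being tested already required it to be bright there. YUC2 (0.43) and YUC11 (-0.03) were not called. Thus 2 of 4 were called, 1 each way, where 25.3% of all tested probe sets were called either way. The YUC6 call was lost without either embryo proper array and with 1 added before log2 (adjusted p 0.00440 to 0.137 over 23 alternatives), whereas the YUC4 call held in all 22 settings that tested it.

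All 6 tested cell division genes of 62 listed were higher in the embryo proper, where 13.2% of all tested probe sets were called higher. Their median difference was 2.1, against -0.07 over all tested probe sets. Like the other lists, this list was chosen with earlier results of these data known. The count is therefore a description and not a separate test against that share. The spindle checkpoint gene BUBR1 had 2097 and 1500 in the embryo proper and 41.6 to 617 elsewhere (difference 3.07, SE 0.42, limma adjusted p = 1.96e-05). HTR12, the histone H3 of centromeres, had 1175 and 1167 in the embryo proper and 147 to 681 elsewhere (difference 1.94, SE 0.46). The Aurora kinase AUR3, of a family that acts on chromosomes in mitosis, had 664 and 850 in the embryo proper (difference 1.54, SE 0.42). AUR1, AUR2 and the helicase subunit PRL were the other 3, and AUR1 and AUR2 are of the same family as AUR3. Leaving out embryo proper replicate 1 left 3 of the 6 calls, and leaving out replicate 2 left 4. These genes were less like BBM across the arrays, with r of 0.673 for AUR3, 0.620 for HTR12 and 0.576 for BUBR1. It was 0.496 for AUR2, 0.376 for AUR1 and 0.315 for PRL. Without the embryo proper arrays r was 0.326 for AUR3, -0.131 for HTR12 and -0.208 for BUBR1. In the peripheral endosperm AUR3 had 507 and 269, HTR12 304 and 580 and BUBR1 355.5 and 352. With the other compartments taken singly, BUBR1 alone of the 6 genes was called higher in the embryo proper than in each. AUR3 was not called against the micropylar (limma adjusted p = 0.112), peripheral (0.266) or chalazal endosperm (0.327). Against the peripheral endosperm, HTR12 (0.120), AUR2 (0.337) and AUR1 (0.479) were not called. AUR1 was also not called against the micropylar endosperm (limma adjusted p = 0.142). PRL was not called against the general (0.138) or chalazal seed coat (0.195).

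**Figure D4:**
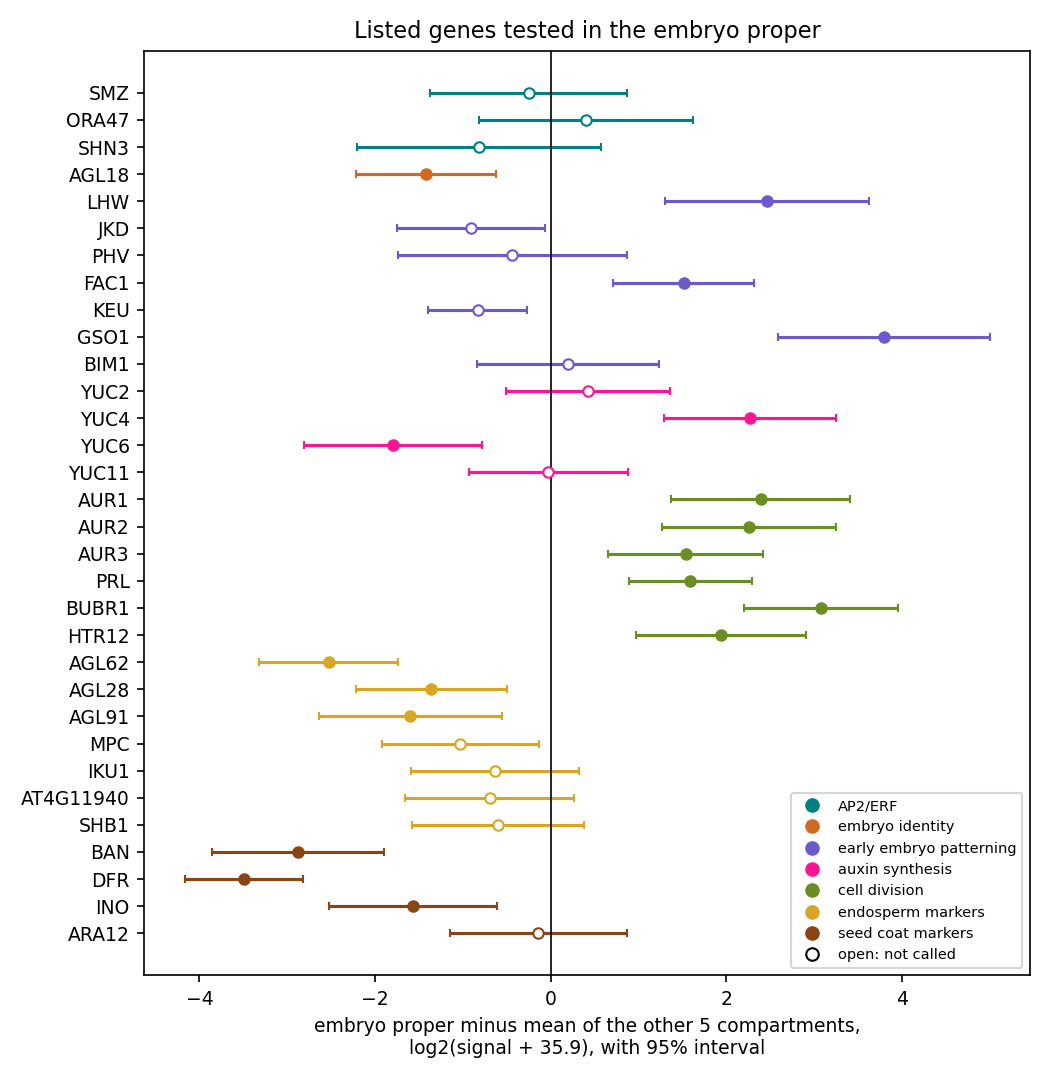
Difference between the embryo proper and the mean of the other 5 compartments for each tested listed gene, on the log2(signal + 35.9) scale, with its 95% interval. Filled points were called and open points were not, so all 6 cell division genes lie to the right of 0 and the intervals of the 3 AP2/ERF relatives of BBM cross 0.

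Markers of the neighbouring tissues were set beside the BBM result. Of 24 listed endosperm genes 8 had a named probe set, and their summed signal was 926 and 1117 in the embryo proper. The sum was 3674 and 3027 in the micropylar endosperm, against which the peripheral endosperm had 13914 and 15942 and the chalazal endosperm 10186 and 16237. It was 564 to 826 in the seed coat regions. AGL62, the factor that delays cell wall formation in endosperm, had 97.5 and 107 in the embryo proper and 3678 to 6469 in the peripheral and chalazal endosperm. Of 31 listed seed coat genes 6 had a named probe set, and their sum was 1495 and 786 in the embryo proper and 17043 to 39870 in the seed coat regions. A few bright genes carry these sums, with DFR and BAN, enzymes of flavonoid synthesis, among the seed coat genes. Among the endosperm genes these were AGL62, MPC (4653 and 5211 in the peripheral endosperm), AGL28 (3588 and 3684 there) and AGL91 (1521 and 4836 in the chalazal endosperm). Of 7 tested endosperm genes 3 were lower in the embryo proper (AGL62, AGL28 and AGL91) and the other 4 were not called. Of 4 tested seed coat genes 3 were lower (DFR, BAN and INO), beside 25.3% of all tested probe sets called either way. The fourth, ARA12, had 211 and 344 in the embryo proper and means of 49.2 to 170 in the endosperm regions, and it was not called (difference -0.14, SE 0.48, limma adjusted p = 0.859). SWEET11 and SAG29, also listed for the seed coat, were too dim to be tested. SWEET11 had a mean of 51.0 in the embryo proper, against 20.2 in the general and 31.3 in the chalazal seed coat. For SAG29 these means were 80.5, 76.1 and 81.8. No listed suspensor gene had a named probe set, and what part other tissues had in the BBM value was not tested.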

How the data were processed

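The deposited table held intensity values on a linear scale, 1 per probe set and array, for 14 arrays. GCOS is named in the submitters' processing notes, with its version and algorithm not given in the sources used here. A scaling by the authors shows in the values, since the mean of each array, with 2% of values trimmed at either end, lay between 500.04 and 500.07. Per the labels' protocols, 2 to 5 ng of total RNA were amplified and labelled with biotin.

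Of 22746 non-control probe sets (64 controls left out), 17336 were tested, namely those with both arrays of at least 1 group above that array's 40th percentile. Of the non-control probe sets 13513 had 1 gene symbol, 503 several and 8730 none, and 13436 matched TAIR10.1 by gene ID. The brightest probe set stood for a gene. Values were turned into log2(value + 35.9), and a mean per group was fitted with limma 3.58.1 (eBayes with a trend, 7 residual and 13.4 prior degrees of freedom) in R 4.3.3. P-values are two-sided and adjusted over all tested probe sets within each comparison. Replicate arrays correlated at 0.852 to 0.930. P-values measure the spread between arrays of a group, taken over all 7 groups together, and the number of arrays limits the precision.

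BBM and the lists were chosen with earlier results of these data known. Named genes are BBM, listed genes with a named probe set, the 10 genes most correlated with BBM and the 5 most correlated listed ones, and neighbouring genes. CHI was dropped from the seed coat list because its symbol names another gene in TAIR10.1. Arrays with the same replicate number were not treated as pairs, since differences between replicates correlated at only -0.03 to 0.04 between groups. This shows no shared pattern over probe sets and cannot show whether such arrays came from the same seeds or batch. The fit was tested on simulated data. Alternatives were the added value, normalization, filter, variance model, arrays used, replicate block and leaving out each array. Figures were drawn with matplotlib 3.10.9.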

Additional observations from a re-analysis of the deposited data

How the results depend on the processing

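BBM stayed higher in the embryo proper in all comparisons and settings run, with differences from 1.95 to 6.04. Of 23 alternatives, 2 ended the call against the micropylar endosperm (4.34, adjusted p = 0.0661, with 1 added before log2, and 2.05 without micropylar endosperm replicate 2) and 2 ended the call against the chalazal endosperm (2.82, adjusted p = 0.192, with 1 added, and 2.31 without embryo proper replicate 2). The cause was not tested. The calls against the other 4 groups and the mean of 5 compartments held in all alternatives, some narrowly. Against the general seed coat the limma adjusted p was 0.0439 with 1 added before log2. Without whole seed replicate 1, the difference from the whole seed was 2.45. With 1 array of any group left out, the difference from the mean of the other 5 compartments was 3.12 to 3.50, from the micropylar endosperm 2.05 to 3.96 and from the chalazal endosperm 2.31 to 2.53. The total of probe sets called in the embryo proper was 4394, and 2062 to 4663 with 1 array left out, where the low values of 2229 and 2062 came without embryo proper replicate 1 and replicate 2. Of the AP2/ERF relatives 0 were called, or 0 to 1 with 1 array left out, where TINY2 passed the filter on its 1 remaining array without embryo proper replicate 2 (1.77, adjusted p = 0.0448). With the replicate block the BBM difference from the mean of 5 compartments was 3.31 (adjusted p = 0.000116), and no call of BBM changed. The 15 pairs without the embryo proper had 0 calls in all 22 alternatives that hold these pairs. For single listed genes, LHW, AUR1 and AGL18 lost their calls without embryo proper replicate 1, FAC1 without replicate 2, and AUR3, HTR12, YUC6 and AT5G17440 without either, YUC6 also with 1 added. Among the markers, AGL28 lost its call without either, AGL91 without replicate 2, and INO without replicate 2 and with 100 added before log2, while MPC gained a call in these last 2 settings. An alternative for single genes was added after the data were seen. The dim values outside the embryo proper limit what can be said of the order of the other groups.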

Other observations

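The genes beside BBM on chromosome 5 in TAIR10.1 gave 1 probe set among the 4 nearest. AT5G17440, the next gene on that chromosome, had 1595 and 2255 in the embryo proper. Its endosperm values were 842 and 873 (micropylar), 1354 and 925 (peripheral) and 534 and 364 (chalazal). It had 768 and 367.5 in the general seed coat and 215 and 860 in the chalazal seed coat. It was higher in the embryo proper than in the mean of the other 5 compartments by 1.53 (SE 0.42, limma adjusted p = 0.00987), a call lost without either embryo proper array (largest adjusted p = 0.180, range 0.00232 to 0.180 over 23 alternatives). Against single compartments, AT5G17440 was not called for the micropylar (1.11, limma adjusted p = 0.149) or the peripheral endosperm (0.74, limma adjusted p = 0.412). Its log2 values correlated with those of BBM at 0.439 over the 14 arrays, which is a description, since arrays of a group share their tissue.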
